A study of Mus musculus with 4 samples.

Results

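The 10 genes described here belong to the BCL2 family, whose proteins decide whether a cell keeps its mitochondria intact or enters apoptosis. They were chosen by gene name, and all 10 were found once each among the 51826 gene models of the deposited table. By role they are 6 pro-survival genes (Bcl2a1a, Bcl2a1b, Bcl2a1d, Bcl2, Bcl2l1 and Mcl1), 3 BH3-only genes (Bcl2l11, Bbc3 and Pmaip1) and 1 effector (Bax). All 10 passed the filter on low counts and were tested among 19057 genes. The study measured poly(A)-selected RNA of primary mouse microglia, the macrophages of the brain, in 2 mock libraries and 2 libraries of cells given lysophosphatidylserine (LysoPS) for 4 h. LysoPS is a phospholipid with a single fatty acid chain and it activates GPR34, the G protein-coupled receptor in the study's title. In both groups the cells came from the brains of newborn C57BL/6 mice without meninges, grew for 2 weeks as a mixed culture and were shaken off. Sample descriptions read WT for the mock libraries and WTL for the LysoPS libraries, each with its replicate number. The mock samples are labelled untreated, and the sources used here do not give the dose of LysoPS, a vehicle or any pooling of animals. One protocol label speaks of a single treated replicate while 2 samples carry LysoPS in their own titles, and the titles were followed. Nothing says that replicates came from separate cultures or animals, so p-values measure the spread between these libraries only.

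Pro-survival proteins of the family hold the effectors BAX and BAK in check by binding them or the BH3-only proteins that activate them. BH3-only proteins are made or released under stress and occupy the groove of the pro-survival proteins, and free BAX and BAK then open the outer mitochondrial membrane and let out cytochrome c. The A1 protein, encoded by the Bcl2a1 genes, is short-lived, largely restricted to blood cells and a classical target of NF-kappaB in macrophages. MCL-1 is also short-lived and is needed by neutrophils. BIM, the product of Bcl2l11, is the BH3-only protein best known for the death of myeloid cells deprived of growth factors.

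The 3 Bcl2a1 members are near-identical copies in 1 region of chromosome 9, so their sequences come before their values. In GRCm38, Bcl2a1d (ENSMUSG00000099974) lies on the minus strand from 88723285 to 88731914, Bcl2a1a (ENSMUSG00000102037) on the plus strand from 88956900 to 88962419, and Bcl2a1b (ENSMUSG00000089929) on the plus strand from 89199209 to 89207827. Each has 1 protein-coding transcript of 2 exons in GENCODE M21. Of the 516 coding bases, 12 positions differ among the 3 copies, and 7 of these lie in the first 150. Those 150 bases are shown as the stretch of the coding sequence with most of these positions. They run from the start codon, capitals mark the positions at which the copies differ, and all other bases are the same in all 3.
Bcl2a1a: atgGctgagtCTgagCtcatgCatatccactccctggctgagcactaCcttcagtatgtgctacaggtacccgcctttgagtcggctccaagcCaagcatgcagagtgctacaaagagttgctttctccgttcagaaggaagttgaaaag
Bcl2a1b: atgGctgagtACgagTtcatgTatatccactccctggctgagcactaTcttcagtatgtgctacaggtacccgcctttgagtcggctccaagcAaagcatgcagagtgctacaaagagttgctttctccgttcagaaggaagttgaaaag
Bcl2a1d: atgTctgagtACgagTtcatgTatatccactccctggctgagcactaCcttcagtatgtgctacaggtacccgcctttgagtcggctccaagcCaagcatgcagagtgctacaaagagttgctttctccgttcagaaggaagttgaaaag
The longest run without any difference within the coding sequence was 217 bases. Aligned pairwise, the transcripts of Bcl2a1a and Bcl2a1b differed at 15 of 817 bases, Bcl2a1a and Bcl2a1d at 10 of 819, and Bcl2a1b and Bcl2a1d at 7 of 817. Of all stretches of 150 bases, 28.2% of those in Bcl2a1a, 14.2% of those in Bcl2a1b and 30.3% of those in Bcl2a1d occurred unaltered in another copy, and for stretches of 100 bases the shares were 43.5%, 31.1% and 54.7%. The overlapping gene model Gm29094, which is not in the sum over the copies, held 253 of the 668 stretches of 150 bases in Bcl2a1b. It also held 68 of 670 in Bcl2a1a and 68 of 714 in Bcl2a1d. The labels put the smallest preferred cDNA fragment at 150 bp, and the sources used here give neither the read length nor the handling of reads that match several places. Values of single copies are therefore uncertain, and the sum over the copies is given beside them.

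The regions before the annotated starts are as alike, and they are shown because all 3 copies were higher after LysoPS, by unequal folds given below. Any part of this likeness in those rises was not tested. The windows are RefSeq's in GRCm38.p6, 250 bases before to 50 bases after the start, read in the direction of the gene: chr9:88956670-88956969 on the plus strand for Bcl2a1a, chr9:89199023-89199322 on the plus strand for Bcl2a1b and chr9:88731801-88732100 on the minus strand for Bcl2a1d. Capitals mark matches, on either strand, to TGANTCA, a core bound by AP-1, and to GAGGAAGT, a core bound by the macrophage factor PU.1.
Bcl2a1a: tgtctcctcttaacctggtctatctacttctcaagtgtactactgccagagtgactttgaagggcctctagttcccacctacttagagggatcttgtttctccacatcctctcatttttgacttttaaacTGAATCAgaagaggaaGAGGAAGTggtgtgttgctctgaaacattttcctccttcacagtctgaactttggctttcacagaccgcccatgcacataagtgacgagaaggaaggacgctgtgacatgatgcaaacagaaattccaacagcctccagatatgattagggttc
Bcl2a1b: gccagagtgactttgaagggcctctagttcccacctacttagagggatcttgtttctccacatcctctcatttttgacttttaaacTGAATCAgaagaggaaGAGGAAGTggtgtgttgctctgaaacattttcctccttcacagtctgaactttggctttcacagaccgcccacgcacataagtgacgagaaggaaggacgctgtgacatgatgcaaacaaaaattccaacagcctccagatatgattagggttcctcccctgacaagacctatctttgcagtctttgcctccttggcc
Bcl2a1d: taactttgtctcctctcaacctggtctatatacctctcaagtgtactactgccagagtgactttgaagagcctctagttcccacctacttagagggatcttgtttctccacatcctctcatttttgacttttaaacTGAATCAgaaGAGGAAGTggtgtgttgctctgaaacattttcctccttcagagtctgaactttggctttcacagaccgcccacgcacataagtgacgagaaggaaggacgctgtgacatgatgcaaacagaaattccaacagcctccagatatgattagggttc
Over the 256 bases that align, the windows of Bcl2a1a and Bcl2a1b were 99.2% identical, and those of Bcl2a1a and Bcl2a1d were 98.0% identical over 294. The PU.1 core began 104 bases before the start in Bcl2a1a and Bcl2a1d and 148 bases before it in Bcl2a1b, whose RefSeq start lies further downstream. Of all 32851 promoter windows, 3.20% held the PU.1 core and 7.81% the AP-1 core. RefSeq windows were found for 9 members, 14 windows in all, and the 3 windows with either core were those of the Bcl2a1 copies. The window of Bcl2a1c, which is no member and held 0 to 4 counts per library, also had the PU.1 core, 214 bases before its start. The NF-kappaB consensus of 10 bases, had a match in 8.46% of all windows. Among the members it matched 1 window of Bcl2l1 and 1 of Bbc3. The motifs do not overlap in the sequences shown, they were chosen with the sequences in view, and a match is a run of letters, not a measured binding site.

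After LysoPS, 6 of the 10 members were higher, 1 was lower and 3 did not pass an adjusted p of 0.05 (edgeR quasi-likelihood test, Benjamini-Hochberg over all tested genes). Among all tested genes 25.5% passed, 12.8% higher and 12.6% lower. The 3 Bcl2a1 copies rose most, followed by Pmaip1, Bax and Mcl1, and Bcl2l11 fell. Astrocyte marker sums were lower and microglia and macrophage marker sums higher after LysoPS, as given with their values after the gene lists, and a change in the number of cells of a type cannot be told apart from a change in RNA per cell. The median log2 fold change was 0.45 over the members and -0.01 over all tested genes. In 9 of 10 members both LysoPS libraries lay on 1 side of both mock libraries, 7 above and 2 below. Among all tested genes the groups were apart in 67.0%, with LysoPS above in 32.5% and below in 34.5%. Scaled by total counts alone the members gave the same 6 and 1 calls, but over all genes the split went from 2447 higher and 2407 lower to 1821 and 3226, with the median of all genes at -0.11. Without mock replicate 1, 4 members passed (the Bcl2a1 copies and Bax), and without mock replicate 2 the 3 Bcl2a1 copies did, while the calls over all genes went from 4854 to 2223 and 2165.

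**Figure D1:**
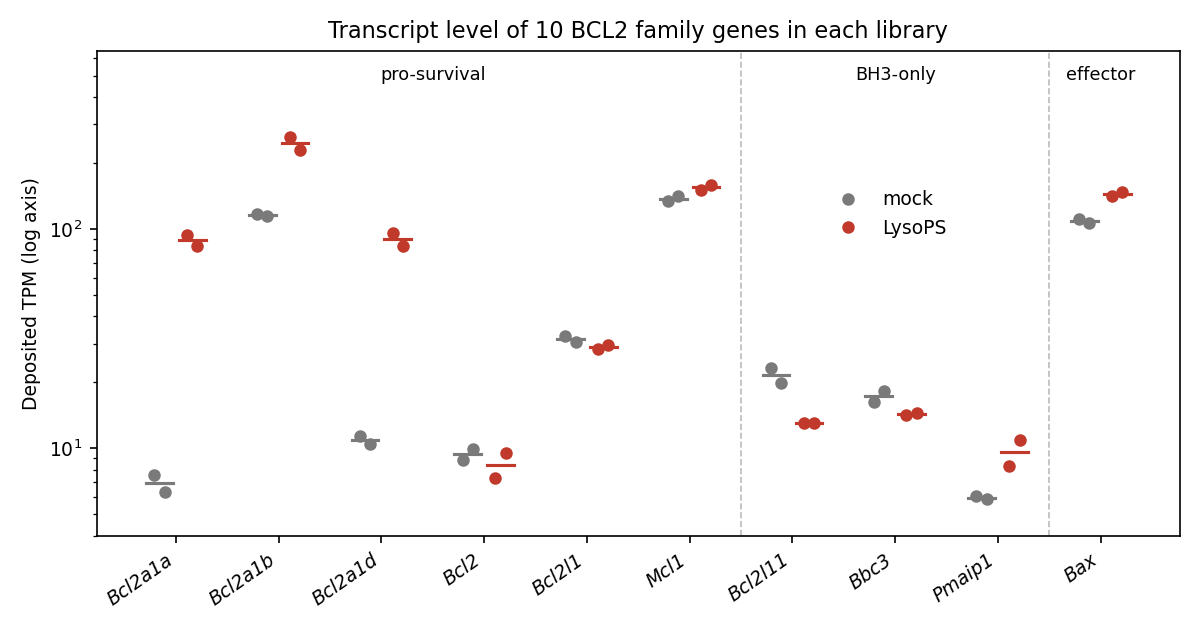
Deposited TPM (log axis) of the 10 genes, grouped by role, with 1 point per library and a bar at the mean of each group of 2 libraries. The 3 Bcl2a1 copies show the widest gaps between mock (grey) and LysoPS (red), with Bcl2a1a going from a mean of 6.94 to 88.8 TPM, while the points of Bcl2 overlap.

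Bcl2a1a stood at 2.92 and 2.36 CPM (normalised read counts scaled to library size, TMM) in mock replicates 1 and 2, and at 41.0 and 34.8 CPM in LysoPS replicates 1 and 2. Both treated libraries were thus far above both mock libraries. The log2 fold change was 3.85 ± 0.16 (SE, n = 2 per group, adjusted p = 0.000433 by edgeR), which is 14.4-fold with a 95% interval from 10.8 to 19.2. It lay above the log2 fold changes of 99.4% of the tested genes.

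Bcl2a1d, on the opposite strand, went from 4.64 and 4.12 CPM to 44.3 and 36.9 CPM. Again the groups were well apart, with a log2 fold change of 3.21 ± 0.14 (SE, adjusted p = 0.000457 by edgeR) or 9.29-fold (95% interval 7.21 to 11.96). An antisense model, Gm10634, spans this locus but held between 2 and 11 counts per library against 143 to 1612 for Bcl2a1d.

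Bcl2a1b was by far the most abundant copy in mock, at 44.96 and 42.5 CPM, and it reached 115 and 94.8 CPM after LysoPS. Its log2 fold change of 1.26 ± 0.11 (SE, adjusted p = 0.00267 by edgeR), or 2.40-fold (95% interval 1.96 to 2.94), was the smallest of the 3. The gene model Gm29094, which starts inside Bcl2a1b on the same strand and runs on toward Mthfs, held 11 and 45 counts in mock and 36 and 81 after LysoPS. Adding its counts to those of Bcl2a1b, an alternative chosen after seeing the data, gave a log2 fold change of 1.26 (adjusted p = 0.00237 by edgeR).

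The sum of the Bcl2a1 loci does not depend on how counted reads were divided among them. It was 52.5 and 48.9 CPM in mock and 200.3 and 167 CPM after LysoPS, so the groups were far apart. Fitted in place of the single copies, the sum rose by 1.85 ± 0.11 on the log2 scale (SE, n = 2 per group, adjusted p = 0.000915 by edgeR), which is 3.62-fold with a 95% interval from 2.96 to 4.41. A further locus, Bcl2a1c, held 4 counts in LysoPS replicate 2 and none in the other libraries.

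The shares of the copies in the Bcl2a1 counts lay apart between the groups as well. Bcl2a1b took 85.6% of the Bcl2a1 counts in mock replicate 1 (exact binomial 95% interval 83.8 to 87.3) and 86.8% in mock replicate 2 (85.3 to 88.2). After LysoPS it took 57.4% (56.2 to 58.6) and 56.9% (55.8 to 58.1), and the intervals cover counting error only. For each Bcl2a1a count there were 15.4 and 18.0 Bcl2a1b counts in mock and 2.80 and 2.73 after LysoPS. The libraries of the groups did not overlap in this ratio, and its difference between the groups was not tested. On the deposited TPM scale, which takes length into account, the mean gains were closer to each other than the folds, at 81.8 TPM for Bcl2a1a, 79.3 for Bcl2a1d and 130 for Bcl2a1b. Whether the gain lay in each copy or was divided among copies by the assignment of reads was not tested.

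**Figure D2:**
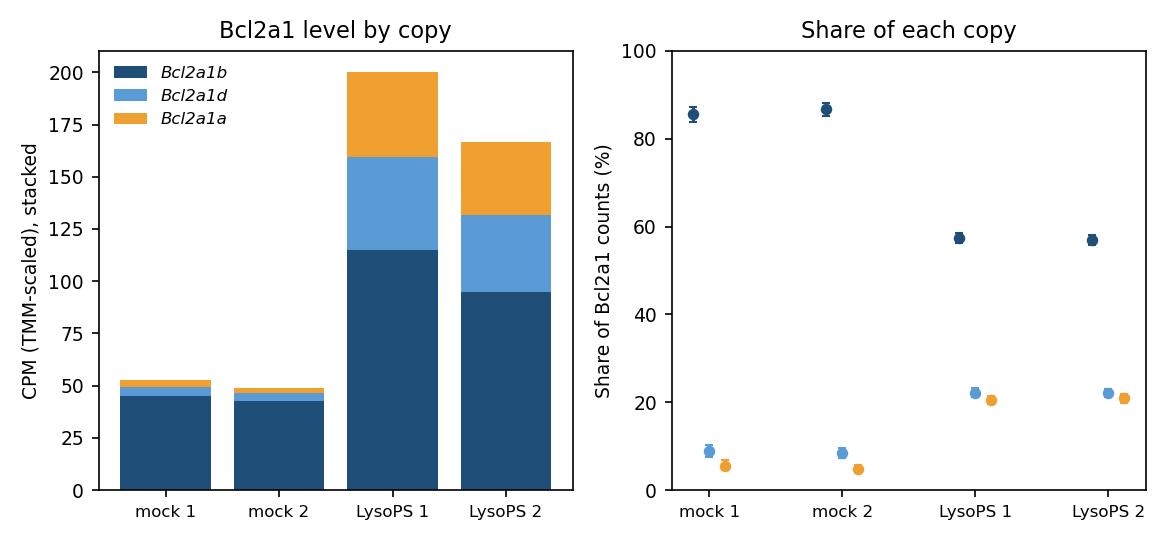
Left, CPM of Bcl2a1b, Bcl2a1d and Bcl2a1a stacked for each of the 4 libraries. Right, the share of all Bcl2a1 counts held by each copy, with exact binomial 95% intervals. The stack grows from 52.5 and 48.9 to 200.3 and 167 CPM (summed loci) while the share of Bcl2a1b falls from 85.6% and 86.8% to 57.4% and 56.9%.

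Mcl1 (ENSMUSG00000038612, chromosome 3, plus strand, 95658788 to 95663176) was the pro-survival gene with the highest TPM in mock. It stood at 214 and 220 CPM in mock and at 274 and 274 CPM after LysoPS. The groups were narrow and apart, and the rise was small, 1.26-fold (95% interval 1.14 to 1.40, log2 fold change 0.34 ± 0.06 SE, adjusted p = 0.0151 by edgeR). It did not pass without mock replicate 1 (log2 fold change 0.32, adjusted p = 0.130), without mock replicate 2 (0.36, 0.102) or by limma on log2(TPM + 1) (0.17, 0.126), where the median of all genes lay at -0.14.

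Bcl2 itself (ENSMUSG00000057329, chromosome 1, minus strand, 106538178 to 106714274) stood at 29.6 and 32.3 CPM in mock and at 27.6 and 34.4 CPM after LysoPS. The mock values lay between the treated ones. The fitted log2 fold change was 0.00 with a 95% interval from -0.33 to 0.34 (adjusted p = 0.994 by edgeR), so changes of up to about 1.26-fold in either direction remain within the error. Its sign turned in 6 of the 11 alternatives.

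Bcl2l1, which encodes BCL-XL (ENSMUSG00000007659, chromosome 2, minus strand, 152780668 to 152831728), was at 28.0 and 27.3 CPM in mock and at 29.5 and 30.2 CPM after LysoPS. The treated libraries were higher by less than the test could call, with a log2 fold change of 0.11 and an interval from -0.10 to 0.31 (adjusted p = 0.376 by edgeR). On the TPM scale the sign was opposite, at -0.12 (adjusted p = 0.350 by limma). GENCODE M21 lists 9 transcripts for the gene, and the gene counts do not separate the long pro-survival form from the short pro-apoptotic one.

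Among the BH3-only genes, Bcl2l11 (ENSMUSG00000027381, chromosome 2, plus strand, 128126038 to 128162547) was the only member that fell. It stood at 40.1 and 33.9 CPM in mock and at 27.5 and 25.7 CPM after LysoPS. Both treated libraries were below both mock libraries, and the mock libraries differed from each other more than the treated ones did. The fitted level was 0.719 times that of mock (95% interval 0.590 to 0.876, log2 fold change -0.48 ± 0.11 SE, adjusted p = 0.0358 by edgeR). The call was lost without any single library, with adjusted p-values of 0.169 and 0.0516 without mock replicates 1 and 2 and of 0.0528 and 0.0731 without LysoPS replicates 1 and 2, and the log2 fold change then ranged from -0.59 to -0.35.

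Pmaip1, on chromosome 18 (ENSMUSG00000024521), encodes NOXA, a BH3-only protein that binds MCL-1 and A1. It stood at 7.50 and 7.05 CPM in mock and at 11.8 and 14.8 CPM after LysoPS. The groups did not overlap, and the rise was 1.83-fold (95% interval 1.40 to 2.39, log2 fold change 0.87 ± 0.15 SE, adjusted p = 0.0152 by edgeR). The call was lost without mock replicate 1 (0.91, adjusted p = 0.0565), without mock replicate 2 (0.83, 0.0745) and by limma on log2(TPM + 1) (0.61, 0.0607).

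Bbc3, which encodes PUMA, a BH3-only protein that binds all pro-survival relatives (ENSMUSG00000002083, chromosome 7, plus strand, 16308393 to 16318205), stood at 11.7 and 12.1 CPM in mock and at 11.2 and 10.5 CPM after LysoPS. The treated libraries were just below the mock ones. The log2 fold change of -0.13 had an interval from -0.41 to 0.15 (adjusted p = 0.432 by edgeR). Bbc3 and Pmaip1 are both known targets of p53, and their estimates had opposite signs here.

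Bax, the effector (ENSMUSG00000003873, chromosome 7, minus strand, 45461697 to 45466898), stood at 53.6 and 49.2 CPM in mock and at 76.7 and 76.0 CPM after LysoPS. The treated libraries lay close together and above both mock libraries. The rise was 1.49-fold (95% interval 1.29 to 1.71, log2 fold change 0.57 ± 0.08 SE, adjusted p = 0.00819 by edgeR), and leaving out mock replicate 2 ended the call (0.51, adjusted p = 0.0619).

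The deposited TPM values allow levels to be compared between genes. In mock the order of mean TPM was Mcl1 (137 ± 5.44, SD), Bcl2a1b (116 ± 2.32), Bax (109 ± 3.29), Bcl2l1 (31.5 ± 1.23), Bcl2l11 (21.5 ± 2.45), Bbc3 (17.3 ± 1.45), Bcl2a1d (11.0 ± 0.676), Bcl2 (9.39 ± 0.748), Bcl2a1a (6.94 ± 0.863) and Pmaip1 (5.95 ± 0.135). No neighbours in that order had overlapping libraries. After LysoPS the order was Bcl2a1b (246 ± 25.02), Mcl1 (155 ± 5.02), Bax (145 ± 5.06), Bcl2a1d (90.2 ± 8.62), Bcl2a1a (88.8 ± 7.29), Bcl2l1 (28.9 ± 0.834), Bbc3 (14.4 ± 0.158), Bcl2l11 (13.1 ± 0.0305), Pmaip1 (9.65 ± 1.85) and Bcl2 (8.44 ± 1.55). There, Bcl2a1d overlapped Bcl2a1a, and Pmaip1 overlapped Bcl2. Bcl2a1b passed Mcl1, and Bcl2a1a moved from the ninth place to the fifth.

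Added up, the 6 pro-survival genes held 311 and 313 TPM in mock and 641 and 594 TPM after LysoPS. The Bcl2a1 copies made 43.9% and 41.9% of that sum in mock and 70.9% and 66.8% after LysoPS. Mcl1 made 42.9% and 45.1%, then 23.6% and 26.7%. Without the Bcl2a1 copies the pro-survival sum was 175 and 182 TPM in mock and 187 and 197 TPM after LysoPS, so most of the added TPM lay in those copies. The 3 BH3-only genes together held 45.6 and 44.0 TPM in mock and 35.6 and 38.5 TPM after LysoPS. Within them Bcl2l11 made 51.0% and 45.01% in mock and 36.6% and 33.9% after LysoPS, while Pmaip1 went from 13.3% in both mock libraries to 23.4% and 28.5%. Pro-survival TPM was 6.83 and 7.12 times the TPM of these 3 BH3-only genes in mock, and 18.0 and 15.4 times after LysoPS. Other BCL2 family genes were outside these sums. Among them, mean TPM in mock and after LysoPS was 44.7 and 42.5 for Bad and 18.6 and 23.8 for Bid. It was 18.1 and 6.84 for Bmf and 26.9 and 16.3 for Bcl2l2. These sums weigh transcripts equally and say nothing of protein, and as scores over chosen genes they are given without a test.

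**Figure D3:**
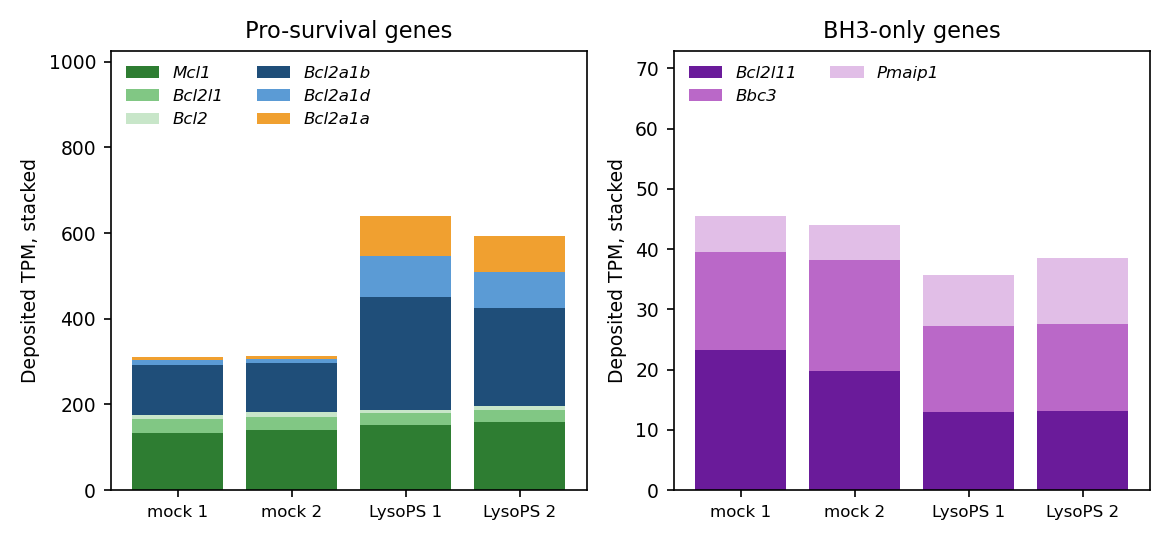
Deposited TPM stacked for each library, for the 6 pro-survival genes (left) and the 3 BH3-only genes (right, on its own axis). The left stacks grow from 311 and 313 to 641 and 594 TPM, mainly in the Bcl2a1 segments, while the right stacks shrink from 45.6 and 44.0 to 35.6 and 38.5 TPM.

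Of 16 further relatives of the family, 12 were tested. Of these 2 were higher and 2 lower, beside 25.5% of all tested genes in either direction, and they had a median log2 fold change of -0.02. Bid, the BH3-only protein cut by caspase-8, rose from 18.5 and 18.7 CPM to 27.3 and 26.6 CPM (0.54, adjusted p = 0.0122 by edgeR), and Bak1, the second effector, rose from 68.4 and 65.3 CPM to 92.0 and 83.8 CPM (0.39, adjusted p = 0.0253). By limma on log2(TPM + 1) neither passed (0.0648 and 0.0564). Bid overlaps Bcl2l13 and Bak1 overlaps Ggnbp1 on opposite strands, and the sources used here do not say whether counting used strand. Bmf, a BH3-only gene linked to loss of attachment, fell from 28.1 and 26.3 CPM to 12.3 and 16.3 CPM (-0.93, adjusted p = 0.0141), and the transcript length implied by its counts and FPKM varied by 1.34 times between libraries. The mitophagy receptor Bnip3l fell by 0.29 on the log2 scale (adjusted p = 0.0481). The neuronal BH3-only gene Hrk stood at 4.45 and 3.10 CPM in mock and at 1.64 and 2.17 CPM after LysoPS but did not pass (adjusted p = 0.0544), nor did Bok, Bad, Bik, Bcl2l12, Bcl2l13, Bnip3 and Bcl2l2. Without mock replicate 1 none of the 12 passed by edgeR (Bid had an adjusted p of 0.0786, Bak1 of 0.106, Bmf of 0.0511 and Bnip3l of 0.269), and without mock replicate 2 and LysoPS replicate 1 the counts were 0 higher and 1 lower, and 1 and 1. Bcl2l10 had no count in any library.

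**Figure D4:**
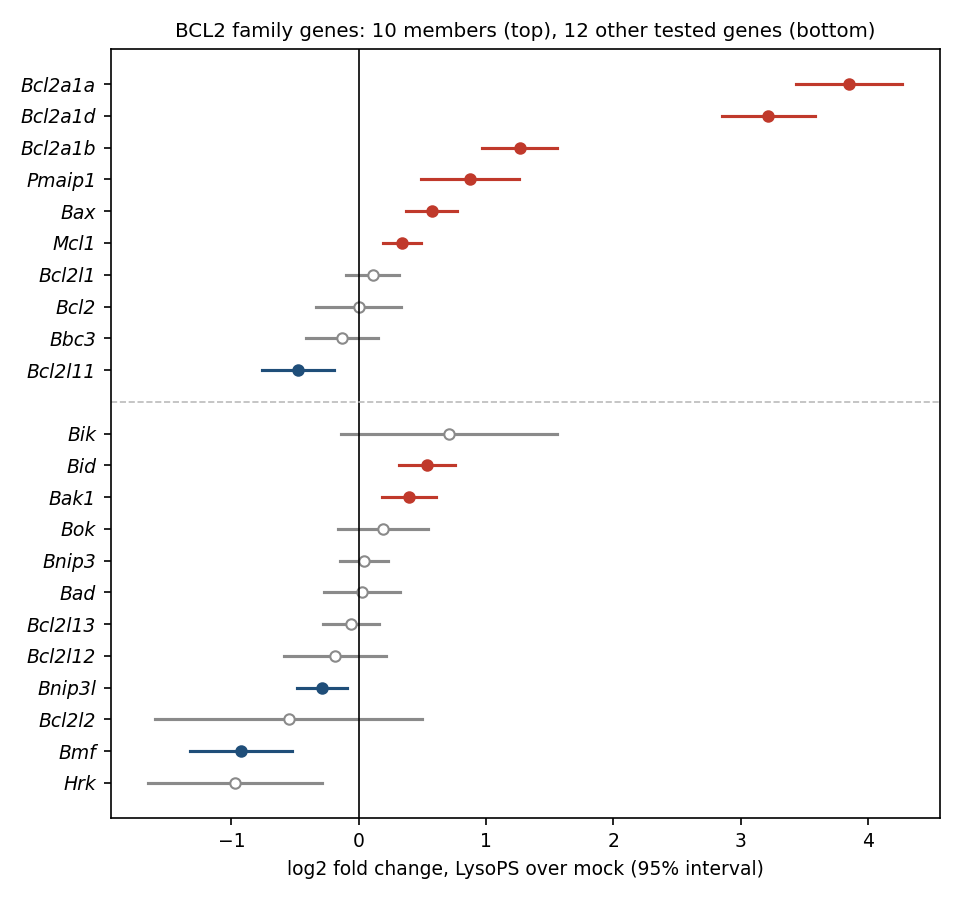
Log2 fold changes (LysoPS over mock) with 95% intervals from the edgeR fit for the 10 members (top) and 12 other tested BCL2 family genes (bottom). Filled points passed an adjusted p of 0.05 (red higher, blue lower) and open points did not, with the 3 Bcl2a1 copies at 3.85, 3.21 and 1.26 beyond all others.

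Downstream of the family, of 14 genes of the apoptosome, caspases and their inhibitors (IAPs), 4 were higher and 1 lower, and the median was 0.10. The share called was 35.7% in this list and 25.5% among all tested genes. Birc3, which encodes the ubiquitin ligase cIAP2, rose from 12.4 and 10.8 CPM to 69.9 and 63.0 CPM (2.52, adjusted p = 0.000457 by edgeR). Cycs, the gene of cytochrome c, rose by 0.67 (adjusted p = 0.00536), Vdac2, a channel of the outer mitochondrial membrane, by 0.42 (0.0107), and Apaf1, the scaffold of the apoptosome, by 0.36 (0.0274). The caspase gene Casp6 fell by 0.38 (0.0316), also a call that did not hold without mock replicate 1 (0.140), mock replicate 2 (0.167) or LysoPS replicate 2 (0.0612). Without mock replicate 1 or mock replicate 2 only Birc3 and Cycs of these 4 passed (Vdac2 had adjusted p-values of 0.0725 and 0.0910, and Apaf1 of 0.193 and 0.124), and Apaf1 did not pass without LysoPS replicates 1 or 2 either (0.0592 and 0.0544).

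Of 7 genes listed for MCL-1 turnover, 1 was higher and 1 lower, and the median was 0.10. The share called, 28.6%, was near the 25.5% of all tested genes. The one that rose, Trib1 (0.99, adjusted p = 0.00323 by edgeR), encodes a scaffold of the COP1 ubiquitin ligase rather than an enzyme acting on MCL-1. Btrc, a substrate receptor of the SCF ligase, fell by 0.33 (adjusted p = 0.0327), a call lost without any single library (adjusted p from 0.0549 to 0.225). The MCL-1 ligase Huwe1 stood at 429.6 and 452 CPM in mock and at 462 and 485 CPM after LysoPS and did not pass (adjusted p = 0.284), nor did the deubiquitinase Usp9x (0.424), both named after their values were seen.

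Called genes of the p53 pathway and of the list acting on BH3-only promoters moved in both directions, and called NF-kappaB genes were all higher. The share called was 52.9%, 62.5% and 92.3% of these lists in that order, against 25.5% of all tested genes. Of 13 NF-kappaB genes, 12 were higher and none lower, and the median was 1.27, and 11 or 12 were higher without any single library. Nfkbia, the feedback inhibitor, rose from 16.7 and 14.9 CPM to 161 and 135 CPM (3.23, adjusted p = 0.000382 by edgeR), and the subunits Nfkb2 (1.91) and Nfkb1 (1.23) and the nuclear cofactor Bcl3 (2.92) rose as well. Earlier results of these data had already shown the direction of NF-kappaB genes. Of 17 genes of the p53 pathway, 6 were higher and 3 lower, and the median was 0.18. The death receptor Fas rose by 1.31 (adjusted p = 0.00146), the p53 ligase Mdm2 by 0.70 (0.00396) and the cell cycle inhibitor Cdkn1a by 0.71 (0.00441), while Sesn1, a stress-induced regulator of mTORC1, fell by 0.64 (0.00569). Perp and Trp53inp1 also fell, by 0.66 (0.0202) and 0.50 (0.0388). Trp53 rose by 0.43 (0.0361), Ccng1 by 0.26 (0.0364) and Gtse1 by 0.36 (0.0376). These rises passed neither by total counts only nor by limma on log2(TPM + 1). All genes from Perp to Gtse1 were named after their values were seen. The first 4 passed in every alternative, whereas the counts without mock replicate 1 and mock replicate 2 were 3 and 2, and 3 and 1. Of 8 genes that act on BH3-only promoters, 3 were higher and 2 lower, and the median was -0.09, and the same 5 genes passed without any single library. Ddit3, which encodes CHOP, a factor that can induce Bcl2l11, rose from 12.1 and 11.95 CPM to 30.2 and 24.7 CPM (1.19, adjusted p = 0.00423), and Atf4 rose by 0.68 (0.00413) and Myc by 0.99 (0.00728). Foxo1, a factor of the same kind under growth factor control, fell from 109 and 109 CPM to 71.6 and 75.8 CPM (-0.57, adjusted p = 0.00606), and Trp73 fell by 1.17 (0.00687) and its implied transcript length ranged over 1.69 times between libraries.

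Some genes followed a member closely over the 4 libraries, by the largest difference between their centred log2 CPM among genes with at least 5 CPM on average. Closest to Bcl2a1b were Epsti1, Hvcn1, Cdkn2b and Nfkbib, whose largest differences from its profile were 0.02, 0.04, 0.05 and 0.05. Closest to Bcl2l11 were Naglu, Entpd6, Ccdc61 and Ppa2, each with a largest difference that rounds to 0.03. For Dld, Lars and Arfrp1 the largest difference from Mcl1 rounded to 0.01. With 4 libraries in 2 groups, such likeness rests mainly on the distance between the groups.

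Markers of other cell types were abundant, and several of their sums differed between the groups. Library totals ran from 30001098 to 45193959 counts. In mock, astrocyte markers summed to 9865 to 10961 CPM, fibroblast and mural markers to 14567 to 14713 CPM, and general microglia and macrophage markers to 3426 to 3792 CPM. Markers of the labelled cell type thus stood beside larger CPM sums for other cells. CPM does not take transcript length into account, so sums of different lists do not give the relative amounts of the cell types. After LysoPS the astrocyte sum was 5114 to 5840 CPM (9 of 10 markers lower) and the fibroblast sum 12033 to 12393 CPM (3 of 8 lower, and 5 by total counts only or by limma on log2(TPM + 1)). The microglia and macrophage sum was 6696 to 7406 CPM, with 12 of 17 gene models higher, 1 lower and a median log2 fold change of 0.54, and 6 higher and 1 lower without mock replicate 2. The macrophage marker Adgre1 alone held 1919 and 2037 CPM of the treated sums, from 148 and 186 CPM in mock. Beside these, Bcl2a1a rose by 3.85, Bcl2a1d by 3.21, the sum of the Bcl2a1 loci by 1.85 and Bcl2a1b by 1.26, while among the 17 models Adgre1 rose by 3.57, Aif1 by 2.33 and Csf1r by 0.40. The part of these marker differences in the members' changes was not tested. Neutrophils also express Bcl2a1, and their markers S100a9, Ly6g, Mpo, Elane and Retnlg had no count in any library. All 10 neutrophil markers summed to 0.902 to 1.04 CPM in mock and 7.48 to 8.30 CPM after LysoPS, most of it Mmp8, and the lymphocyte markers Cd3e and Cd3g had no count. Of the 3 neutrophil markers tested, Mmp8 was higher by 2.80 (adjusted p = 0.00215 by edgeR). Camp went from 0 and 0 to 39 and 27 counts (adjusted p = 0.0141 by edgeR). S100a8 went from 0 and 6 to 44 and 21 counts without passing (0.0621). Camp and S100a8 entered the test only through their counts after LysoPS. Their direction was thus set by the filter, and their tests add nothing to it. Oligodendrocyte markers were higher in 3 of 7 (240.8 to 247 CPM against 274 to 286), and in 0 of 7 without mock replicate 1, without mock replicate 2 or by limma on log2(TPM + 1). Endothelial markers were lower in 2 of 5 tested (335 to 342 CPM against 165 to 189). Most of that sum was Cdh5, with 306 and 296 CPM in mock and 147 and 170 CPM after LysoPS. Pecam1 went the other way, from 0.10 and 0.74 to 1.70 and 2.10 CPM, without passing (adjusted p = 0.0875 by edgeR). With no filter, by DESeq2 or by limma on log2(TPM + 1), 1 endothelial marker was called higher. None of 6 neuronal markers passed by edgeR with all 4 libraries.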

How the data were processed

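Counts, TPM and FPKM per gene model for 4 libraries come from 1 table deposited by the authors. The deposited counts are whole numbers, and the deposited TPM and FPKM values are normalized for length and depth by the authors. Per the submitters' processing notes, FastQC 0.11.2, Trimmomatic 0.36, HISAT2, StringTie and the build GRCm38 were used, and their roles, the annotation and the counting program are not given in the sources used here. The counts were tested with edgeR 4.0.16 in R 4.3.3 (TMM scaling, filterByExpr with a minimum count of 10, quasi-likelihood test, Benjamini-Hochberg over 19057 genes, threshold 0.05). A standard error is the log2 fold change divided by the square root of F, and the 95% interval uses the t quantile at the fit's degrees of freedom. The model has 2 residual degrees of freedom, and the biological coefficient of variation was 0.150. The fit was tested on simulated data with known changes. TPM served for levels and FPKM for the implied transcript length (count divided by FPKM, scaled per library). Alternatives used DESeq2 1.42.0, limma 3.58.1 on log2(TPM + 1), other scalings and filters, a replicate term and each library left out. Every member was named, as were up to 4 genes past the threshold with the smallest p in each pathway list and the 4 closest profiles to Bcl2a1b, Bcl2l11 and Mcl1, by log2 of CPM plus 0.5. Casp6 and Myc, each at rank 5 by p in its list, were named outside this rule, as were Casp9 and Xiap. The members and lists were chosen with earlier results of these data known. Transcript sequences are from GENCODE M21 and promoters from RefSeq. A few genes that these rules or lists would name are not reported here.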

Additional observations from a re-analysis of the deposited data

How the results depend on the processing

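Of 111 values of single members under the alternatives, 93 kept their direction and their side of the threshold, 11 lost the call and 7 changed sign. The sign changes were in genes that were not called. Bcl2 came to -0.10 by total counts only, -0.018 with at least 5 CPM in 2 libraries, -0.15 by limma on log2(TPM + 1), -0.06 without mock replicate 1 and -0.16 without LysoPS replicate 2 (from -0.16 to 0.15 over the libraries left out), and Bcl2l1 came to -0.12 by limma. Leaving out 1 library at a time gave 2165 to 5356 genes called, 3 to 6 members called against 7, 25 to 39 pathway genes called against 37, and a log2 fold change of 1.71 to 1.99 for the summed Bcl2a1 loci, which passed in all 11 alternatives. In these fits the lone library of a group is assumed to vary like the others. With the replicate number as a block, 5433 genes, 7 members and 40 pathway genes were called, the summed Bcl2a1 loci stood at 1.85 (adjusted p = 0.000417 by edgeR) and Bcl2 at -0.0048, and no member's call changed. Nothing in the labels pairs the numbers, and the deviations of same-numbered libraries correlated at 0.0775 across genes. By limma on log2(TPM + 1), 1353 genes were higher and 3088 lower. The causes of these shifts were not tested. With 2 libraries a group, the calls of Mcl1, Bcl2l11, Pmaip1 and Bax were each lost with at least 1 of the libraries left out.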

Other observations

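Some relatives differed in 1 library alone. Bcl2l2, a pro-survival gene, stood at 39.4 and 40.8 CPM in mock and at 15.5 and 39.1 CPM after LysoPS, while the overlapping model Gm20521 on the same strand held 6.00 and 11.7 CPM in mock and 3.88 and 20.1 CPM after LysoPS. Casp9 stood at 41.3 and 36.0 CPM in mock and at 19.96 and 42.1 CPM after LysoPS. Xiap stood at 119 and 28.6 CPM in mock and at 32.8 and 32.6 CPM after LysoPS. Ggnbp1, antisense to Bak1, held 817 counts in mock replicate 2 and 52 to 77 in the other libraries.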
